A study of Apis mellifera with 9 samples.

Results

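The Hsp70, Hsp90 and Hsp60 chaperones of the worker honey bee ovary are 10 of the 10271 protein-coding genes, and of the 13204 features of all kinds, in the RNA-seq table of the study. They were chosen by gene name (Hsc70-4, Hsp90) or by a product name with heat shock and the size of one of these classes, with cognate heat shock protein, or with endoplasmin. The ovaries came from Apis mellifera workers collected 4 days after emergence, in 3 pools of 40 ovary pairs, each pool from 1 colony of the 5 colonies with sister queens that were kept. Before emergence the brood frames stood in an incubator at 34 °C with a relative humidity of 80%, and the marked bees went back to their own colony. All 3 pools belong to 1 biological group with no treatment, genotype or time contrast, so pools are compared with each other and genes with genes. The values below come from 1 RNA-seq library per pool (rRNA-depleted RNA, strand-specific kit) and 1 circRNA library per pool (RNase R digested RNA). The study catalogued the coding and non-coding RNAs of this tissue.

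Chaperones bind unfolded or partly folded proteins and use ATP to help them fold, assemble or cross membranes. Hsp70 proteins take up short stretches of a client handed to them by J-domain (Hsp40) proteins and let go when an exchange factor swaps ADP for ATP. Hsp90 proteins act later, on nearly folded clients such as kinases and steroid receptors, and Hsp60 forms a folding chamber in the mitochondrion that is closed by its lid, Hsp10. Each compartment has its own set: the cytosol, the endoplasmic reticulum (ER) and the mitochondrion. In Drosophila, Hsc70-4 is abundant in the ovary, and the RNA of the Hsp90 gene Hsp83 is made in the nurse cells and loaded into the egg.

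The product names and the protein domain listed with each gene fit the label for 8 of the members. The Hsp70 class held 4 genes: Hsc70-4, Hsc70-3, Hsc70-5 and the Hsp70Ab-like gene LOC410620. The Hsp90 class held 3: Hsp90, the Hsp83-like gene LOC411700 and endoplasmin (LOC412150). Hsp60 was LOC409384. The naming rule also took in LOC408706 (Hsc70Cb), which carries the Hsp70 domain but belongs to a branch of that family that acts as an exchange factor, and LOC551720, which is an activator of the Hsp90 ATPase (Aha1) and no chaperone of these classes.

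All members were expressed in all pools, at 68.7 to 2066 FPKM (fragments scaled to exonic length and to the size of the library) on the mean of 3 pools. Their median log2(FPKM + 1) was 6.80 ± 0.27 (SD of the 3 pool medians, n = 3), against 3.97 ± 0.07 for all 10271 protein-coding genes. In FPKM, the median of the members was 114 and that of protein-coding genes 15.0. Hsc70-4 ranked 4 among protein-coding genes, Hsp90 ranked 274 and Hsp60, the lowest member, ranked 1099. The libraries held 26602582 to 31930244 fragments, and the smallest count behind any member's value was 2763 fragments, for Aha1 in pool 3. Library totals and counts were recovered from the FPKM values, with the smallest exonic length that gives whole fragments in all 3 libraries.

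**Figure D1:**
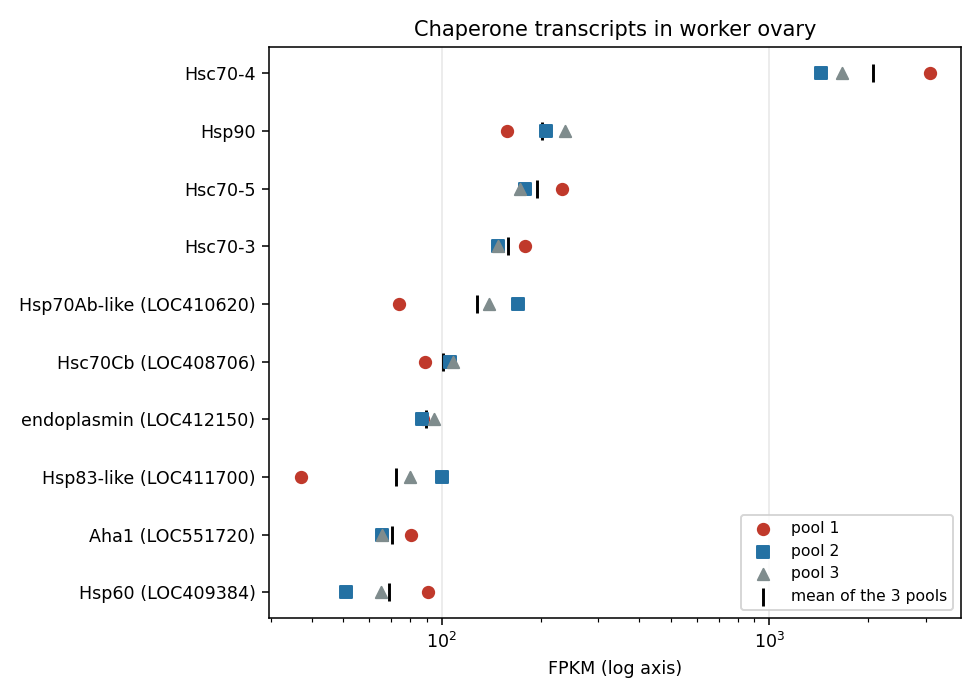
FPKM of each of the 10 members (rows) on a log axis, with 1 symbol per pool and a vertical bar at the mean of the 3 pools. Hsc70-4 lies between 1441 and 3085 FPKM, apart from all other members, which lie between 37.0 and 238 FPKM.

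Hsc70-4, the constitutive Hsp70 of cytosol and nucleus that also strips clathrin from vesicles, was by far the most abundant member. Its gene lies on LG1 from 7307348 to 7311680 (plus strand, in the coordinates of the deposited table) with a recovered exonic length of 2428 bases. It stood at 3085, 1441 and 1671 FPKM in pools 1, 2 and 3, a mean of 2066 ± 890.3 FPKM (SD, n = 3). Pool 1 was the high one, while pools 2 and 3 lay close together with a mean of 1556 FPKM. These levels rested on 239171, 96847 and 107944 fragments. As a share of all fragments that was 0.749% in pool 1 (95% Wilson interval 0.746 to 0.752), 0.350% in pool 2 (0.348 to 0.352) and 0.406% in pool 3 (0.403 to 0.408), where the intervals cover counting error only. Of the summed FPKM of the 10 members, Hsc70-4 made up 75.0%, 56.4% and 60.1% by pool (63.8% ± 9.86, n = 3). The other 9 members together summed to 1029, 1116 and 1111 FPKM, so that without Hsc70-4 the sum was nearly level and lowest in pool 1.

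Hsc70-5, the Hsp70 of the mitochondrial matrix (mortalin in mammals), stood at 233, 179.5 and 173 FPKM by pool (195 ± 33.0, n = 3). Its gene lies on LG1 from 29269344 to 29273901 (minus strand). Hsc70-3, the Hsp70 of the ER lumen known as BiP in mammals, stood at 179.8, 149 and 148 FPKM (159 ± 18.2, n = 3) and lies on LG3 from 1792922 to 1796793 (plus strand). In both genes pool 1 was the highest, and pools 2 and 3 lay close together.

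The Hsp70Ab-like gene LOC410620 ran the other way. It is named after an Hsp70 gene that in Drosophila is switched on by heat, and lies on LG15 from 5275950 to 5279690 (plus strand). It stood at 74.0, 171 and 139 FPKM in pools 1, 2 and 3 (128 ± 49.4, n = 3), from 5289, 10590 and 8282 fragments. Pool 1 was the low one here. A pseudogene on the opposite strand (LOC107965560) overlaps 172 bases of it and was listed at 0 FPKM in pools 1 and 3 and 0.0859 in pool 2. The exchange factor Hsc70Cb (LOC408706, LG2 from 5404850 to 5413210, minus strand) varied little, with 88.8, 106 and 108 FPKM (101 ± 10.5, n = 3) and pool 1 lowest. It shares 623 bases with LOC725742 on the opposite strand, a gene at a mean of 4.32 FPKM, and whether the authors counted by strand is not stated. The other 8 members overlap no listed feature. How reads of similar sequence were divided between related members, such as Hsc70-4 and the Hsp70Ab-like gene, or Hsp90 and the Hsp83-like gene, is likewise not stated.

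Hsp90, the cytosolic form that completes the folding of kinases and hormone receptors, stood at 158, 208 and 238 FPKM by pool (201 ± 40.1, n = 3). The gene lies on LG7 from 7776640 to 7779859 (minus strand). The Hsp83-like gene LOC411700, a further gene of the cytosolic type by its listed orthology, lies on LG1 from 21806364 to 21809202 (minus strand) and stood at 37.0, 99.9 and 80.0 FPKM (72.3 ± 32.1, n = 3). Both cytosolic Hsp90 genes were lowest in pool 1, and the Hsp83-like gene had the widest relative spread of all members, with an SD of 44.5% of its mean. Endoplasmin (LOC412150), the Hsp90 of the ER lumen, was the steadiest at 87.4, 86.9 and 94.4 FPKM (89.6 ± 4.20, n = 3), an SD of 4.69% of its mean. It lies on LG8 from 8374165 to 8377408 (minus strand). The activator Aha1 (LOC551720), which speeds up the ATPase of Hsp90, stood at 80.5, 65.5 and 65.7 FPKM (70.6 ± 8.59, n = 3) and was highest in pool 1.

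Hsp60 (LOC409384) stood at 90.4, 50.7 and 65.0 FPKM by pool (68.7 ± 20.1, n = 3). Its gene lies on LG16 from 1812905 to 1816907 on the minus strand. The gene next to it, 944 bases away and on the plus strand, is LOC552531, which encodes its lid Hsp10, so the pair starts back to back. Hsp10 stood at 88.9, 22.2 and 54.9 FPKM (55.4 ± 33.4, n = 3). Both genes were highest in pool 1 and lowest in pool 2, with a 1.78-fold range for Hsp60 and a 4.00-fold range for Hsp10. Their FPKM ratio was therefore uneven: 1.02 in pool 1, 2.28 in pool 2 and 1.18 in pool 3. The Hsp10 level in pool 2 rested on 420 fragments if the exonic length is 682 bases, the smallest that gives whole fragments in all 3 libraries.

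Between pools, 3 of the 10 members differed 2-fold or more: the Hsp83-like gene (2.70-fold), the Hsp70Ab-like gene (2.31-fold) and Hsc70-4 (2.14-fold). Among the 7074 protein-coding genes with mean FPKM of 5 or more, 10.2% differed that much. With 10 members the count is small, and since each pool is 1 library no test was made. No member differed 3-fold, against 3.62% of genes. The 2-fold count depended on both pool 1 and pool 2. It was 0 without pool 1, 1 without pool 2 (the Hsp83-like gene) and 3 without pool 3. Shares of all genes with a pool left out are not given here. Of the 10 members, 1 was 2-fold or more apart with pool 1 highest and 2 with pool 1 lowest. Among the 7074 genes, 6.49% and 2.42% met the same rules.

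**Figure D2:**
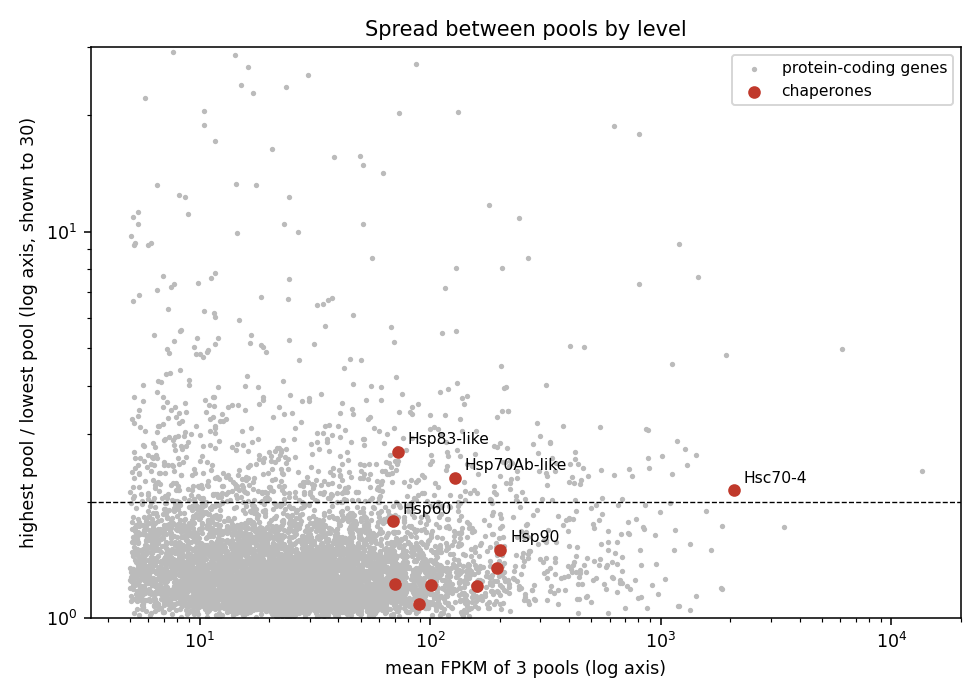
Ratio of the highest to the lowest pool (log axis) against mean FPKM (log axis) for protein-coding genes with mean FPKM of 5 or more, with the 10 members as large points and a dashed line at 2-fold. The Hsp83-like gene, the Hsp70Ab-like gene and Hsc70-4 lie above the line, and the other 7 members below it.

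Pool 1 did not hold the same place for all members. It was the highest pool for 5 members (Hsc70-4, Hsc70-3, Hsc70-5, Hsp60 and Aha1) and the lowest for 4 (Hsp90, the Hsp83-like gene, the Hsp70Ab-like gene and Hsc70Cb), with endoplasmin between. Among all genes of that level pool 1 was highest for 38.9% and lowest for 39.7%, so neither share stands far from the background. In log2(FPKM + 1), pool 1 minus the mean of pools 2 and 3 was 0.99 for Hsc70-4, 0.64 for Hsp60, 0.40 for Hsc70-5 and 0.28 for Hsc70-3. It was -0.49 for Hsp90, -1.05 for the Hsp70Ab-like gene and -1.25 for the Hsp83-like gene. The median over the members was 0.11 and that over all genes 0.01. By compartment, the 2 mitochondrial members were both highest in pool 1, and in the ER Hsc70-3 was highest and endoplasmin between. Of the cytosolic chaperones, Hsc70-4 was highest and the Hsp70Ab-like gene and both cytosolic Hsp90 genes were lowest. Each compartment holds few genes, and compartments were not tested against each other.

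**Figure D3:**
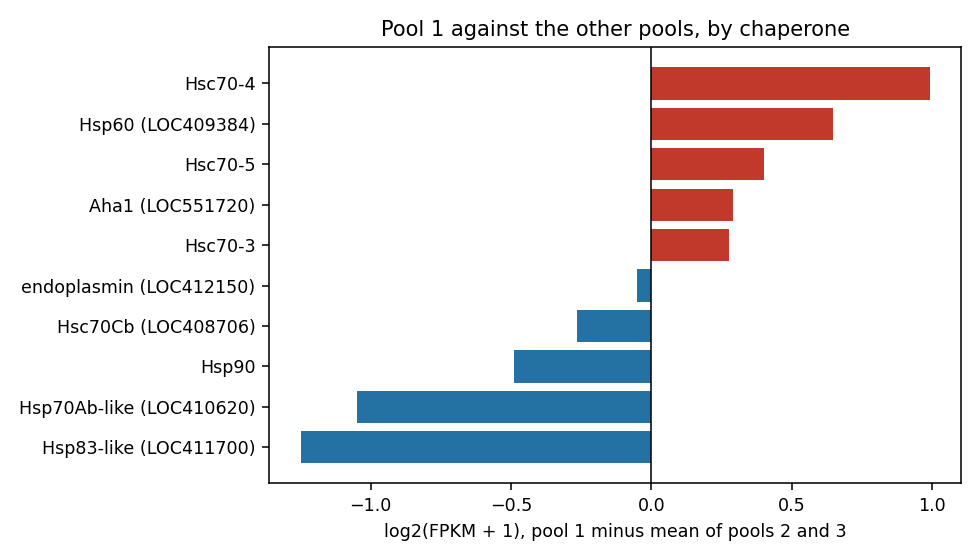
Difference in log2(FPKM + 1) between pool 1 and the mean of pools 2 and 3 for each member. The bars run from -1.25 for the Hsp83-like gene to 0.99 for Hsc70-4, with endoplasmin near 0.

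The summed levels of the muscle, gut and cuticle markers were highest in pool 1. Of 13 muscle genes, 12 were highest in pool 1, beside the 38.9% of all genes above, with a summed level of 1500.3 FPKM against 766 and 696 in pools 2 and 3. Of 15 gut genes 12 were highest there (219, 64.2 and 73.7 FPKM), and of 54 cuticle genes 33 (2119, 834 and 724 FPKM). These lists hold 5 gut and 24 cuticle genes with a mean FPKM below 1, whereas the 38.9% is over genes at 5 or more. Single genes weighed on the cuticle sums: Apd-3 stood at 918, 21.8 and 35.7 FPKM, while Cpap3-d ran the other way at 253, 587 and 398 FPKM. The gut names also matched an antitrypsin-like gene of the serpin class (LOC100578030), which inhibits proteases. It was left out after its values were seen, and with it the gut sums were 545, 322 and 292 FPKM. None of the 6 germ line genes was highest in pool 1 (204, 232 and 242 FPKM), nor was any of the 5 haemocyte genes, 1 of which is also among the cuticle genes (174, 205 and 192 FPKM). Of 6 fat body genes 2 were highest there (1147, 1378 and 1431 FPKM), of 10 venom and head gland genes 5 (51.5, 76.7 and 56.1 FPKM) and of 2 follicle and eggshell genes 1 (154, 267 and 191 FPKM). No marker was at 0 in all pools, while 8 cuticle genes, 3 gut genes (trypsin-1, LOC409626, among them), 1 muscle gene (tropomyosin-2, LOC413205) and 1 gland gene (Mrjp2) were at 0 in at least 1 pool. The part of other tissues in the chaperone values was not tested. In pooled tissue, fewer cells of a type and less RNA per cell cannot be told apart.

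Ordered by mean level, Hsc70-4 stood clear of the next member, Hsp90. The difference within each library was 4.28, 2.78 and 2.81 in log2(FPKM + 1), a mean of 3.29 ± 0.85 (n = 3), in the same direction in 3 of 3 pools (exact two-sided sign-flip permutation test, p = 0.25, the smallest that 3 pools allow). In FPKM, Hsc70-4 was 19.5 times Hsp90 in pool 1 and 6.91 and 7.03 times in pools 2 and 3. Of the 9 pairs of neighbours in the order, 3 kept the same direction in every pool with a mean difference above its SD. These were Hsc70-4 over Hsp90, Hsc70-5 over Hsc70-3 (0.29 ± 0.08) and Hsc70Cb over endoplasmin (0.17 ± 0.13, but only 0.02 in pool 1). The other 6 pairs did not meet both conditions. Hsp90 and Hsc70-5 changed places between pools (0.04 ± 0.53), as did the Hsp83-like gene and Aha1 (-0.07 ± 0.90).

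Within a compartment, some ratios held better than others. In the ER, Hsc70-3 was 2.06, 1.71 and 1.57 times endoplasmin by pool. In the mitochondrion, Hsc70-5 was 2.58, 3.54 and 2.66 times Hsp60. In the cytosol, Hsc70-4 was 41.7 times the Hsp70Ab-like gene in pool 1 and 8.43 and 12.0 times in pools 2 and 3. The Hsp70Ab-like and Hsp83-like genes, of different families and on different linkage groups, kept a ratio of 2.001, 1.71 and 1.74. Their difference in log2(FPKM + 1) was 0.85 ± 0.12 (n = 3), with a smaller SD than that between the cytosolic genes Hsp90 and Hsp83-like (1.56 ± 0.51) or between Hsc70-4 and the Hsp70Ab-like gene (4.00 ± 1.20). It was not the smallest: Hsc70-5 and Hsc70-3, of different compartments, differed by 0.29 ± 0.08. These pairs were picked after their values were seen, and the SDs were not tested against each other.

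The partners of these chaperones were taken from a list of co-chaperones and folding factors matched to 65 protein-coding genes by product name, of which 60 had a mean FPKM of 5 or more. Of the 60, 4 differed 2-fold or more between pools, all highest in pool 1. Of all genes with mean FPKM of 5 or more, 10.2% differed that much, and 6.49% did so with pool 1 highest. The 4 were Hsp10, prefoldin subunit 2 (LOC726085, 67.1, 29.1 and 53.0 FPKM) and the J proteins LOC409892 (43.9, 37.0 and 19.8 FPKM) and LOC410730 (12.3, 5.72 and 5.13 FPKM). The partners had a median log2(FPKM + 1) of 5.72 ± 0.14 (n = 3).

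Among 23 J proteins, which hand clients to Hsp70, pool 1 was highest for 10 and lowest for 7, beside 38.9% and 39.7% of all genes with mean FPKM of 5 or more. Only 20 of the 23 reached that level. The 10 include LOC102654159 (0.11, 0 and 0 FPKM by pool) and the 7 include LOC102655765 (0.08, 0.18 and 0.28 FPKM), both near 0. The most abundant J protein was Droj2 (LOC724368), of the type that works with cytosolic Hsp70, at 205, 268 and 268 FPKM (247 ± 36.1, n = 3). The dnaJ protein homolog 1 (LOC411071) stood at 99.9, 133 and 113 FPKM. These abundant J proteins were lowest in pool 1, while dnaJ subfamily B member 6 (LOC408966) was highest there at 171, 127 and 143 FPKM. Of 6 exchange factors, which release clients from Hsp70, 4 were highest in pool 1 and 0 lowest, beside the same 38.9% and 39.7%. The most abundant of them, the BAG domain protein LOC727486, was not among the 4 and stood at 103, 136 and 101 FPKM.

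The 6 partners of Hsp90 gave 2 genes highest and 2 lowest in pool 1, beside the same background. The co-chaperone p23 (LOC552470), which closes the Hsp90 clamp, was the highest and nearly level, with 138, 140.3 and 137 FPKM (139 ± 1.77, n = 3). The immunophilin FKBP59 (LOC412287) stood at 83.3, 120.2 and 117 FPKM, and Hop (LOC102656934, stress-induced phosphoprotein 1), which bridges Hsp70 and Hsp90, stood at 56.2, 71.9 and 70.9 FPKM. Both were lowest in pool 1, as were Hsp90 and its Hsp83-like relative. CHIP (LOC551229), the ubiquitin ligase that marks clients of both for breakdown, was highest in pool 1 at 68.0, 52.6 and 57.5 FPKM, and the kinase adaptor Cdc37 stood at 29.4, 28.3 and 41.0 FPKM.

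Of the 14 subunits of CCT, the cytosolic relative of Hsp60 that folds actin and tubulin, and of prefoldin, which delivers to it, 12 were highest in pool 1 and 1 lowest, beside 38.9% and 39.7% of all genes. Of the 14, 13 had the mean FPKM of 5 or more that the background asks for. The median pool 1 difference of the 14 in log2(FPKM + 1) was 0.30, against 0.01 over all genes, and no test was made of it. The highest by level was prefoldin subunit 1 (LOC726689) at 129, 85.3 and 115 FPKM. The 7 ER folding proteins gave 3 highest and 0 lowest in pool 1, beside the same 38.9% and 39.7%. The most abundant of them was calreticulin (LOC409165), which folds glycoproteins, and it was highest in pool 3, at 199, 195 and 230.3 FPKM by pool. TRAP1 (LOC550968), the Hsp90 of the mitochondrion, was outside the naming rule and stood at 36.2, 31.4 and 31.4 FPKM. The ER exchange factor with an Hsp70 domain, hypoxia up-regulated 1 (LOC551763), was also outside it, at 61.7, 55.4 and 57.9 FPKM.

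The regulators of these genes were measured too. Heat shock factor (LOC411854), the transcription factor that drives heat-induced chaperone genes, stood at 142, 111 and 134 FPKM (129 ± 16.0, n = 3), a 1.28-fold range. The most abundant regulator was the ATF4-type factor cryptocephal (LOC410226) at 498, 666 and 468 FPKM. The ER stress sensors IRE1 (LOC408501) and PERK (LOC727396) stood at 55.7 ± 4.27 and 48.8 ± 3.27 FPKM (n = 3). Of the 7 regulators matched, 3 were highest and 3 lowest in pool 1, beside 38.9% and 39.7% of all genes with mean FPKM of 5 or more. Only 6 of the 7 reached that level. An IRE1-like gene counted as lowest (LOC100576259) stood near 0, at 0.05, 0.06 and 0.50 FPKM.

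**Figure D4:**
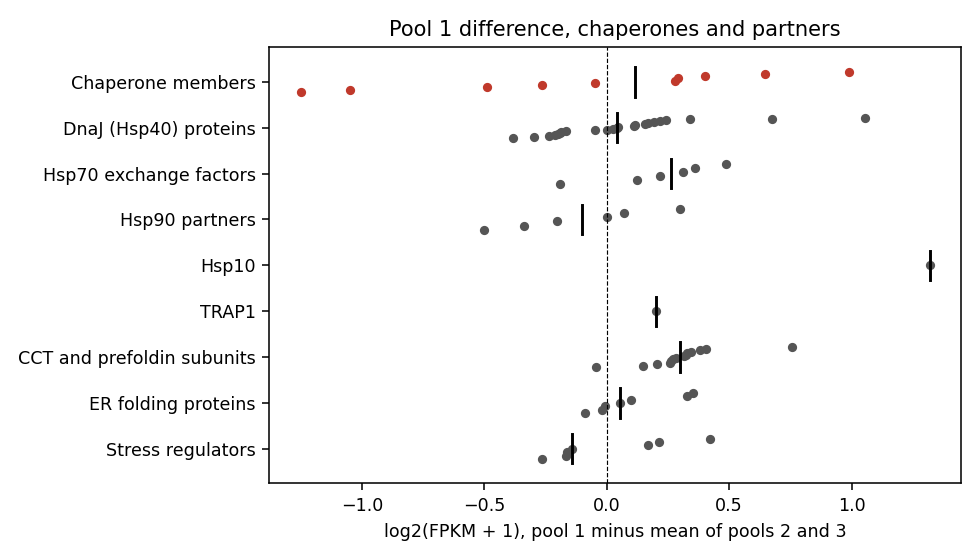
Difference in log2(FPKM + 1) between pool 1 and the mean of pools 2 and 3 for the 10 members and the 65 partner genes by group, 1 point per gene, with a black bar at each group's median. The members span -1.25 to 0.99, and the CCT and prefoldin subunits sit around 0.30.

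The genes whose values over the 3 pools were most like those of Hsc70-4 were found by Euclidean distance of the centred log2(FPKM + 1), among 1680 other protein-coding genes with mean FPKM of 50 or more. They were cysteine-rich protein 1 (LOC726733, distance 0.07), an FK506-binding protein 2 gene (LOC102656268, 0.09), thioredoxin reductase Trxr-1 (0.11), a hepatocyte nuclear factor 4 gene (LOC102655120, 0.13) and annexin B9 (LOC412487, 0.13). LOC102656268 stood at 326, 151 and 189.7 FPKM and Trxr-1 at 161, 83.1 and 88.6 FPKM. With 3 pools, such likeness describes these libraries only.

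In the RNase R libraries, 3 of the 10 members had a circRNA listed and 7 had none, beside 21.2% of protein-coding genes with mean FPKM of 5 or more that had at least 1. Each of the 3 had a single junction, and its level was given by the authors as SRPBM, a signal of back-spliced reads scaled to mapped reads. The Hsc70-4 junction (LG1, 7307373 to 7307768, plus strand, 396 bases) stood at 1241 SRPBM in pool 1, was listed at 0 in pool 2 and stood at 345 in pool 3. The Hsp70Ab-like junction (LG15, 5275956 to 5276926, plus strand) stood at 302 SRPBM in pool 1 and 251 in pool 3, and the Hsp90 junction (LG7, 7779273 to 7779838, minus strand) at 229.8 in pool 3 only. All 3 were listed at 0 in pool 2, as were 46.0% of the 11794 junctions of the table, beside 40.6% in pool 1 and 29.3% in pool 3.

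All SRPBM values above 0 came out whole, within 0.001, in units of 10.8 SRPBM in pool 1, 12.1 in pool 2 and 10.4 in pool 3, and the lowest listed value was 2 units in each library. What a unit stands for is not stated. Read as 1 back-spliced read, the units give 115 and 33 reads for Hsc70-4 in pools 1 and 3, 28 and 24 for the Hsp70Ab-like gene and 22 for Hsp90 in pool 3. The exact 95% Poisson intervals, for counting error alone, are then 1024 to 1489 and 237 to 484 SRPBM for Hsc70-4, which do not overlap. For the Hsp70Ab-like junction they are 201 to 437 and 161 to 373 SRPBM, so pools 1 and 3 were not told apart there. For Hsp90 in pool 3 the interval is 144 to 348 SRPBM. The Hsc70-4 circRNA was highest in the pool where its mRNA was highest. The Hsp90 circRNA was listed only in pool 3, where its mRNA was highest (238 FPKM). The Hsp70Ab-like circRNA was not highest where its mRNA was. It was listed at 0 in pool 2, where its mRNA was highest (171 FPKM), and at 302 SRPBM in pool 1, where its mRNA was lowest (74.0 FPKM). The 0 in pool 2 was shared by the Hsc70-4 and Hsp90 junctions and by 46.0% of all junctions. With pools 1 and 3 not told apart, no opposed pattern is shown.

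These junctions lay at the very start of their genes: the upstream end was 25 bases from the gene start in Hsc70-4, 21 in Hsp90 and 6 in the Hsp70Ab-like gene. Among 9550 junctions of coding genes on the strand of their host, 103 (1.08%) began within 30 bases of the gene start. That share is not matched for gene length. The median distance over those junctions was 33016.5 bases, longer than Hsc70-4 (4333 bases), Hsp90 (3220) or the Hsp70Ab-like gene (3741) as a whole. The mean signal of the Hsc70-4 junction over pools (528 SRPBM) was below the median of 699 over 2119 coding hosts, although its mRNA ranked 4. For each host that signal is the sum over all its junctions.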

How the data were processed

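The members, the partner and marker lists and the comparisons were chosen with earlier results of these data known. The authors deposited mRNA and lncRNA levels as FPKM per gene and circRNA levels as SRPBM, a signal per junction, both per the labels. The submitters' processing notes name HTSeq 0.6.1, TopHat2 2.0.9, Bowtie2 2.0.6 and Bowtie, with no step assigned to any. Neither a genome build nor strand use in counting is stated. Positions are those of the deposited table, and all 10 members lie on the same linkage group in Amel_HAv3.1. Library totals and exonic lengths were recovered from FPKM steps (whole fragments within 0.001). Levels were compared as log2(FPKM + 1), and folds between pools for genes with mean FPKM of 5 or more. The genes named were all members, the highest partner of each group, heat shock factor, the partners with the widest spread and the 5 genes most like Hsc70-4. Other partners and ratios were named after their values were seen. Pools are separate colonies, and a pool number is shared by the RNA-seq and circRNA libraries, between which no test was made. The miRNA tables were not used. Python 3.11.15, numpy 2.4.6, pandas 2.3.3 and scipy 1.17.1 were used, and the calculations were tested on simulated data.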

Additional observations from a re-analysis of the deposited data

How the results depend on the processing

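The median level of the members was 6.80 in log2(FPKM + 1) and 7.12 with the exchange factor and the Hsp90 activator left out, and 6.66 to 6.99 with a pool left out. The count of members 2-fold or more apart was 3 under size-factor scaling and under lower FPKM minimums, 0 at 3-fold, and 0 to 3 with 1 pool left out. The Hsc70-4 minus Hsp90 difference was 2.80 to 3.54 with a pool left out. The median pool 1 difference was 0.09 to 0.14 without pool 2 or 3. Counts of members highest or lowest in pool 1, an alternative chosen after seeing the data, were 5 and 5 with size factors, where endoplasmin joined the lowest, 5 and 5 without pool 2, and 6 and 4 without pool 3. Of 40 further values of single members, 1 changed sign: endoplasmin without pool 3 (0.01). No paired analysis was possible because no test compares 2 groups of samples, and the Hsc70-4 minus Hsp90 difference is already taken within each library. With 3 libraries and no replicate of a colony, differences between pools carry no test.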

Other observations

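The Hsp70Ab-like gene and the Hsp83-like gene shared their pattern over the pools with genes outside the chaperone families, named here after their values were seen. Among genes with mean FPKM of 50 or more, the Hsp83-like gene was in place 15 of 1689 by likeness to the Hsp70Ab-like gene, and in the reverse direction the place was 10. Nearer to the Hsp83-like gene were the trehalose transporter Tret1 (214, 536 and 459 FPKM by pool) and a cytosolic formyltetrahydrofolate dehydrogenase, an enzyme of one-carbon metabolism (LOC551401, 62.5, 168 and 126 FPKM). B-gluc1, listed under the product name gram-negative bacteria-binding protein 1-2, stood at 257, 630 and 499 FPKM and was near to both. Hsp90 itself was far from its Hsp83-like relative, which held place 1251 by likeness to it. Hsp10 held place 1337 by likeness to Hsp60, its neighbour in the genome and partner in the mitochondrion. The distance used grows with the size of the differences, so a far place need not mean opposed patterns. Hsp60 and Hsp10 had the same order of pools, with ranges of 1.78-fold and 4.00-fold, and both cytosolic Hsp90 genes were lowest in pool 1.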
